A study of Mus musculus with 6 samples.

Results

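The genes described here are 10 members of the antioxidant defence of mouse jejunal intestinal epithelial cells (IEC): Nfe2l2, which encodes the transcription factor Nrf2, its classical targets Nqo1, Hmox1, Gclc, Gclm, Txnrd1 and Srxn1, and the glutathione peroxidases Gpx1, Gpx2 and Gpx4. They were taken from the table by gene symbol, and all 10 were among the 19616 genes of the deposited count table and among the 15618 genes kept for testing. RNA came from 3 control mice, labelled wild-type and named C1, C3 and C3-3, and from 3 mice labelled villin-Cre Hdac1-/-; Hdac2-/-, named H1, H5 and H9 and called mutant mice here. There was 1 library per mouse, and all mice were 3 months old, on a mixed C57BL/6J, 129SV and CD1 background. The villin promoter drives Cre in the intestinal epithelium, where it removes floxed Hdac1 and Hdac2, the genes of a pair of histone deacetylases. Other cells carried along in an EDTA preparation keep both genes. The comparison addresses how these transcripts stood in an epithelium in which both deacetylases had been targeted.

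Nrf2 is held in the cytoplasm by Keap1, which hands it to a Cul3 ubiquitin ligase for degradation. When oxidants or electrophiles modify Keap1, Nrf2 accumulates, pairs with a small Maf protein and binds antioxidant response elements, while Bach1 and Bach2 compete for the same elements. Its targets supply glutathione, reduce thioredoxin and quinones and break down haem. Glutathione peroxidases are mostly selenoproteins that use glutathione to reduce peroxides. Gpx1 is found in most cells, Gpx2 is typical of the gut epithelium and Gpx4 reduces lipid peroxides in membranes.

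The promoters are shown first because the antioxidant response element is what the Nrf2 targets have in common. The core of the element, the bases TGAC, then any 3 bases, then GC, was searched on both strands of RefSeq promoter windows (GRCm38.p6) that run from 250 bases before to 50 bases after a gene's start. No other motif was searched. Windows were given for 8 of the 10 genes, all but Hmox1 and Gclc. The core was found in 4 of these 8 genes (50%), namely Nfe2l2, Gclm, Txnrd1 and Srxn1. It was found in 14.0% of all 27025 genes with a window and 16.8% of the 12336 of them in the count table. A gene was counted if any of its windows held the core. By window the contrast was smaller, with the core in 4 of 13 windows of these genes (30.8%) against 12.4% of all 32851. In Nfe2l2 it lay 240 to 232 bases before the start on the gene's strand, in Gclm 134 to 126 bases before the start on the opposite strand, and in Txnrd1 92 to 84 bases before 1 of its annotated starts, also on the opposite strand. In Srxn1 it lay 29 to 37 bases after the start. Capitals mark the core, and each sequence is read 5′ to 3′ on the strand of its gene, at chr2:75704874-75704913 (minus) for Nfe2l2, chr3:122245402-122245452 (plus) for Gclm and chr10:82859093-82859143 (plus) for Txnrd1.
Nfe2l2: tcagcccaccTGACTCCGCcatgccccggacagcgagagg
Gclm: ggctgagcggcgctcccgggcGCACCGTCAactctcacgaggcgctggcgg
Txnrd1: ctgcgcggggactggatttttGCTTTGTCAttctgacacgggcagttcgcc

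Nqo1, Gpx1, Gpx2 and Gpx4 had no such core in their windows, which says only that these letters do not occur there. The 200 bases before the start are given for Nqo1 (chr8:107403206-107403405, minus), whose transcript fell furthest, and for Gpx2 (chr12:76795555-76795754, minus), the peroxidase that rose furthest.
Nqo1: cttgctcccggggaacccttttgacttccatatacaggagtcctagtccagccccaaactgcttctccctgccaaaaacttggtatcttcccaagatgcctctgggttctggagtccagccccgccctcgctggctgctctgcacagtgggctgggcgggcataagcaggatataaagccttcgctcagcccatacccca
Gpx2: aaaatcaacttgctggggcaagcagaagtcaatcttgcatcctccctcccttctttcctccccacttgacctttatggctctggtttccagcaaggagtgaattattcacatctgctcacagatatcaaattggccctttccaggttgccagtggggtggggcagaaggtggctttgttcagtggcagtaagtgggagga

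Library totals were 58017009 to 65902344 counts in control and 36111035 to 65230566 in mutant mice, the shallowest being H5, and levels are given as CPM, counts relative to library size after TMM scaling. The share of a library held by its top 20 genes was 16.0% to 19.2% in control and 11.8% to 12.4% in mutant mice. Hdac1 (chr4:129516104-129542713, GRCm38, as all gene positions here) fell from 40.8 ± 7.33 to 3.77 ± 1.16 CPM (SD, n = 3 each; log2 fold change -3.43, edgeR adjusted p = 2.9e-05). Hdac2 (chr10:36974544-37001889) did not: it was at 27.7 ± 4.72 CPM in control and 24.5 ± 2.70 CPM in mutant mice (log2 fold change -0.18, edgeR adjusted p = 0.44). A count over the whole gene does not resolve the deleted exons, so the Hdac2 part of the label was not checked by these data. The library of control mouse C3 held 3082 counts of Y-linked genes and the others 1 to 13. Without C3, Hmox1, Gpx1, Nqo1, Gclc and Gclm were called as with it and Gpx2 was not. Of the markers of enterocytes, the labelled cells, 1 of 9 rose and 5 fell, beside 20.5% and 20.3% of all tested genes. Yet these markers stayed abundant, with a summed level of 77804 to 91767 CPM in control and 27487 to 37457 CPM in mutant mice. In bulk RNA, fewer cells of a type and less RNA per cell cannot be told apart.

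The antioxidant genes moved both ways. Hmox1, Gpx2 and Gpx1 rose in the mutant mice, Nqo1, Gclm and Gclc fell, and Nfe2l2, Txnrd1, Srxn1 and Gpx4 did not pass the test, which required an adjusted p of at most 0.05 (quasi-likelihood test of edgeR, adjusted by Benjamini-Hochberg across the 15618 genes). Across all tested genes 20.5% passed as higher and 20.3% as lower, 40.8% in either direction, and the count of 6 in 10 was not read as a property of these genes. With a change of at least 2-fold required as well, Hmox1 and Gpx2 remained as higher and Nqo1 and Gclm as lower, against 12.4% and 12.7% of all genes. The values of the mutant and control mice did not overlap for the same 6 genes that passed the test, where 53.2% of all genes had no overlap. The median log2 fold change of the 10 genes was -0.14, with 5 above and 5 below 0 and a range of -1.94 to 2.44, and that of all tested genes was -0.0081.

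**Figure D1:**
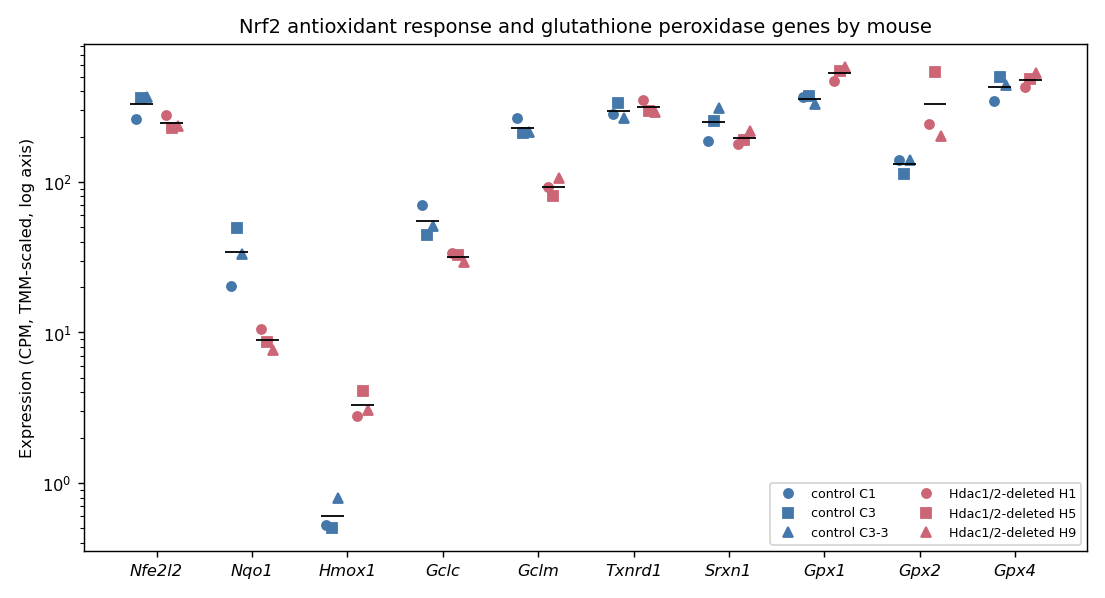
Expression of the 10 genes in each mouse, in TMM-scaled CPM on a log axis, with controls in blue, mutant (Hdac1/2-deleted) mice in red, 1 symbol per mouse and a black line at the group mean. The red points lie above all blue ones for Hmox1, Gpx1 and Gpx2 and under all blue ones for Nqo1, Gclc and Gclm, and H5 stands apart for Gpx2 at 538 CPM.

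Nfe2l2 (chr2:75675513-75704641, ENSMUSG00000015839), the gene of Nrf2 itself, was at 261, 363 and 366 CPM in C1, C3 and C3-3 and at 276, 227 and 236 CPM in H1, H5 and H9. H1 lay above the lowest control, so the groups overlapped. The log2 fold change was -0.42 (SE 0.17, edgeR adjusted p = 0.084). The call depended on C1, the lowest control. Without C1 the log2 fold change was -0.56 and the gene passed as lower (edgeR adjusted p = 0.023).

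Nqo1 (chr8:107388225-107403206, ENSMUSG00000003849) encodes a quinone reductase that is widely used as a readout of Nrf2 activity. It was at 20.2, 49.6 and 33.4 CPM in C1, C3 and C3-3 and at 10.5, 8.58 and 7.67 CPM in H1, H5 and H9. The controls spread more widely than the mutant mice, but every mutant value lay under every control value. Nqo1 was 3.85-fold lower in mutant mice (log2 fold change -1.94, SE 0.31, edgeR adjusted p = 0.0015), and with any 1 mouse left out the log2 fold change stayed between -2.21 and -1.58 and past the limit.

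Hmox1 (chr8:75093621-75100589, ENSMUSG00000005413) encodes the inducible haem oxygenase, which opens haem to biliverdin, carbon monoxide and iron. It was the least abundant of the 10 genes, with 35, 28 and 42 counts in C1, C3 and C3-3 and 208, 155 and 187 counts in H1, H5 and H9. Scaled to depth these were 0.528, 0.504 and 0.790 CPM in the controls and 2.81, 4.08 and 3.04 CPM in the mutant mice. All mutant values were higher than all control values. The rise was 5.43-fold (log2 fold change 2.44, SE 0.33, edgeR adjusted p = 5.6e-04), and it stayed between 2.27 and 2.68 on the log2 scale with any 1 mouse left out.

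Macrophages are rich in this enzyme, and 4 of 12 tested macrophage and myeloid markers rose while none fell. Of all tested genes 20.5% rose and 20.3% fell, and each marker count of this paragraph stands beside these shares. The summed level of the macrophage and myeloid markers was 20.1 to 29.5 CPM in control and 35.2 to 67.5 CPM in mutant mice. The 4 that rose were Mrc1, Csf1r, C1qa and C1qb. Mrc1, the mannose receptor, rose furthest, from 0.549 ± 0.0870 to 5.50 ± 0.842 CPM (log2 fold change 3.32, edgeR adjusted p = 5.7e-05), and C1qa and C1qb, complement subunits, rose by 1.18 and 1.15 on the log2 scale (edgeR adjusted p = 0.027 and 0.043). Among the defining genes Csf1r rose (3.65 ± 0.865 to 12.3 ± 4.86 CPM, SD, n = 3 each, edgeR adjusted p = 0.0023), while Cd68 was at 1.06 ± 0.397 and 1.92 ± 0.275 CPM (edgeR adjusted p = 0.091) and Adgre1 at 0.402 ± 0.126 and 0.684 ± 0.512 CPM (edgeR adjusted p = 0.31). No marker of this list was at 0 in any library, and Cd163, at 1 to 25 counts, was too low to be tested. Of the red blood cell genes 0 of 5 passed the test in either direction, with summed levels of 3.13 to 75.2 CPM in control and 13.2 to 22.6 CPM in mutant mice. Summed T cell and intraepithelial lymphocyte markers were at 157 to 598 CPM in control and 87.0 to 189 CPM in mutant mice (1 of 12 rose, 2 fell). B and plasma cell markers were at 95.0 to 138 and 317 to 390 CPM, and the 2 of 5 that rose were Sdc1, which epithelium also expresses (84.9 to 294 CPM), and Cd79b (1.15 to 32.7 CPM), while Jchain was at 23.1 and 17.8 CPM and Cd79a at 0.732 and 0.346 CPM. Stromal, endothelial and muscle markers were at 16.0 to 72.1 and 11.03 to 15.9 CPM (4 of 10 fell). The part of these cells in the Hmox1 result was not tested.

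Both subunits of glutamate-cysteine ligase, the first enzyme of glutathione synthesis, fell. Gclm (chr3:122245557-122270732, ENSMUSG00000028124), the modifier subunit, was at 265, 211 and 213 CPM in C1, C3 and C3-3 and at 91.8, 80.8 and 106 CPM in H1, H5 and H9. The lowest control was well above the highest mutant mouse. The fall was 2.47-fold (log2 fold change -1.31, SE 0.16, edgeR adjusted p = 3.4e-04), with a range of -1.41 to -1.18 when any 1 mouse was left out. Exons of Gclm overlap the predicted genes Gm6061 and Gm17494, at 0.184 to 0.414 CPM and at 0 to 0.395 CPM over the 6 libraries, and since the use of strand in counting is not given, reads of Gclm and the antisense Gm17494 cannot be told apart.

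Gclc (chr9:77754535-77794485, ENSMUSG00000032350), the catalytic subunit, was at 69.7, 44.5 and 50.6 CPM in C1, C3 and C3-3 and at 33.9, 32.6 and 29.2 CPM in H1, H5 and H9. The mutant mice lay close together under all controls, and C1 was the highest control. The fall was 1.72-fold (log2 fold change -0.78, SE 0.18, edgeR adjusted p = 0.0081). Scaling by library totals alone ended this call (log2 fold change -0.61, edgeR adjusted p = 0.054).

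Within a library, the count of Gclm over that of Gclc does not depend on scaling. The ratio was 3.80, 4.74 and 4.21 in C1, C3 and C3-3 and 2.71, 2.48 and 3.63 in H1, H5 and H9. It was lower in every mutant mouse than in every control, by 0.55 on the log2 scale on average. The exact two-sided permutation test gave p = 0.1, the smallest value that 3 against 3 mice allow, and 0.3 after Benjamini-Hochberg adjustment over the 3 ratios tested. As this test could not reach 0.05 here, it says nothing for or against a difference between the falls of the subunits.

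**Figure D2:**
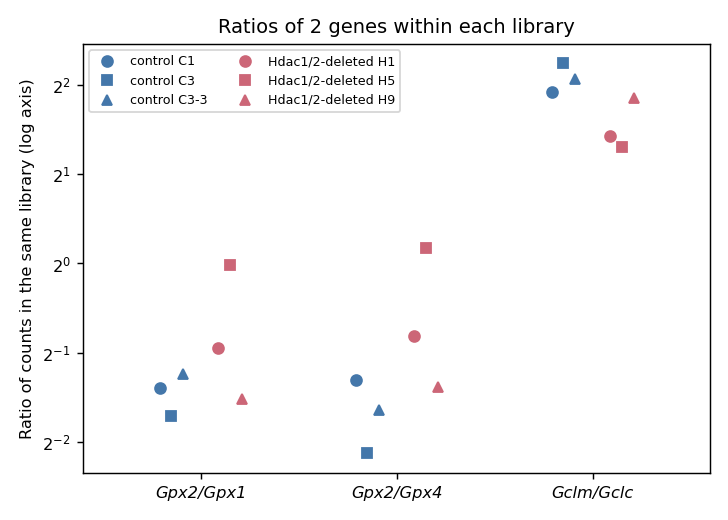
Ratio of the counts of 2 genes in the same library, on a log axis, for each of the 3 control mice (blue) and 3 mutant mice (red). The Gclm to Gclc ratio is lower in every mutant mouse, while the Gpx2 ratios of the mutant mice spread from near the controls (H9) to about 1 (H5).

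Txnrd1 and Srxn1, which help to keep thioredoxin and peroxiredoxins reduced, did not pass the test. Txnrd1 (chr10:82833951-82897712, ENSMUSG00000020250), cytosolic thioredoxin reductase and itself a selenoprotein, was at 281, 336 and 266 CPM in C1, C3 and C3-3 and at 349, 295 and 293 CPM in H1, H5 and H9. The groups overlapped, with a log2 fold change of 0.08 (SE 0.15, edgeR adjusted p = 0.70). Srxn1 (chr2:152105516-152111376, ENSMUSG00000032802), sulfiredoxin, which restores overoxidised peroxiredoxins, was at 187, 255 and 311 CPM in the controls and at 179, 190 and 217 CPM in the mutant mice. Here too the groups overlapped through C1 (log2 fold change -0.36, SE 0.20, edgeR adjusted p = 0.17). Without C1 the Srxn1 difference was -0.53 on the log2 scale and passed as lower (edgeR adjusted p = 0.034).

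**Figure D3:**
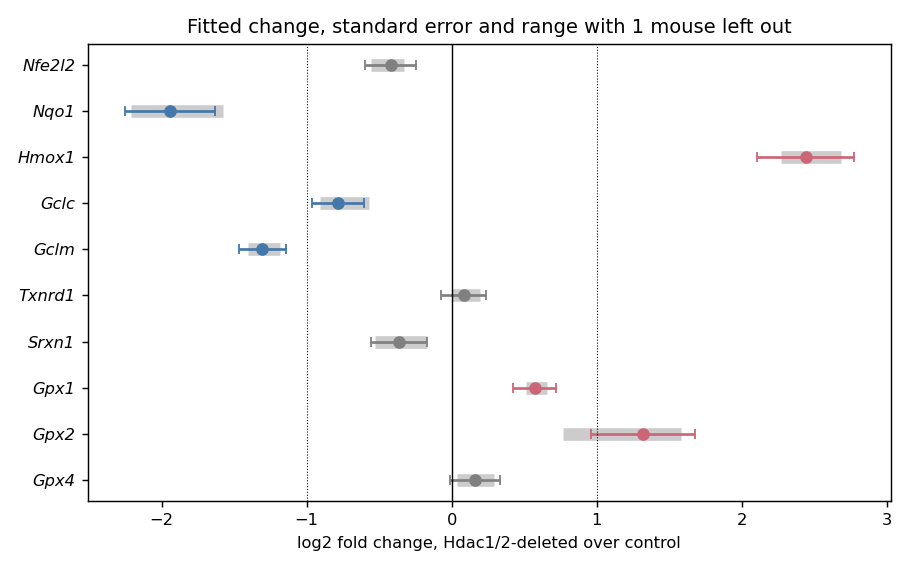
Fitted log2 fold change of each gene, mutant over control, with its standard error (thin bars) and its range over the 6 fits that each left out 1 mouse (grey band). Red and blue points passed the test as higher or lower, grey points did not, and dotted lines mark a 2-fold change. The band of Gpx2 reaches down to 0.77, its value without H5.

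Of the glutathione peroxidases, Gpx1 and Gpx2 rose and Gpx4 did not pass the test. Gpx1 (chr9:108338903-108340343, ENSMUSG00000063856) was at 368, 372 and 331 CPM in C1, C3 and C3-3 and at 469, 546 and 579 CPM in H1, H5 and H9. Each mutant mouse was above each control, by 1.49-fold in the fit (log2 fold change 0.57, SE 0.15, edgeR adjusted p = 0.014). The call was lost without C3-3 (0.53, edgeR adjusted p = 0.061) and without H9 (0.51, edgeR adjusted p = 0.055).

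Gpx2 (chr12:76792333-76795554, ENSMUSG00000042808) was at 140, 113 and 140 CPM in C1, C3 and C3-3 and at 244, 538 and 201 CPM in H1, H5 and H9. All mutant mice were above all controls, but H5 was far above H1 and H9. The rise was 2.50-fold (log2 fold change 1.32, SE 0.36, edgeR adjusted p = 0.021). Without H5 it was 0.77 on the log2 scale and still passed (edgeR adjusted p = 0.013), while leaving out C1, C3 or C3-3 kept a difference of 1.24 to 1.39 but ended the call, with edgeR adjusted p = 0.065, 0.080 and 0.052. The pseudogene Gpx2-ps1, with which reads may be shared, was at 0.169 to 0.198 CPM in control and 0.211 to 1.05 CPM in mutant mice.

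Gpx2 is strong in crypts, and of 10 crypt and proliferation markers 2 rose and 2 fell, beside 20.5% and 20.3% of all genes. Their summed levels were 540 to 759 CPM in control and 342 to 565 CPM in mutant mice. All 6 Paneth cell markers fell (3282 to 5264 CPM summed in control, 181 to 279 CPM in mutant mice), as did 4 of 7 goblet cell markers (18426 to 21045 and 6568 to 13666 CPM). In the crypt list the stem cell markers Olfm4 (273 to 91.4 CPM on average) and Lgr5 (3.43 to 1.19 CPM) fell. Ascl2 (4.88 and 2.51 CPM, edgeR adjusted p = 0.12) and Smoc2 (34.1 and 24.7 CPM, edgeR adjusted p = 0.27) did not pass. The replication genes Mcm2 (22.1 to 44.9 CPM, edgeR adjusted p = 0.010) and Mcm6 (53.5 to 76.1 CPM, edgeR adjusted p = 0.019) rose. Pcna, another replication gene, went the other way without passing (52.6 to 37.5 CPM, edgeR adjusted p = 0.13). Mki67, Top2a and Ccnb1 did not pass either (edgeR adjusted p = 0.24, 0.79 and 0.29). The part of cell composition in the change of Gpx2 was not tested.

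Gpx4 (chr10:80047166-80056439, ENSMUSG00000075706) was at 345, 496 and 438 CPM in C1, C3 and C3-3 and at 428, 479 and 524 CPM in H1, H5 and H9. The values were interleaved (log2 fold change 0.16, SE 0.18, edgeR adjusted p = 0.49). The Gpx2 to Gpx1 ratio was 0.379, 0.304 and 0.424 in the controls and 0.520, 0.985 and 0.347 in H1, H5 and H9, and the Gpx2 to Gpx4 ratio was 0.404, 0.228 and 0.320 against 0.570, 1.12 and 0.383. H9 fell among the controls in both ratios. The mean differences were 0.62 and 1.02 on the log2 scale (exact two-sided permutation p = 0.3 and 0.2, both 0.3 after adjustment over the 3 ratios). The smallest p this exact permutation test allows is 0.1.

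To compare levels between genes, CPM were divided by the exon length in kb, which joins all annotated exons of a gene. For Gpx1 (1441 bases) and Gpx2 (3222 bases) this length equals the whole gene region, so any intron is counted. A length without introns would raise their values per kb, and their place in the order below depends on this choice. In control mice Gpx1 and Gpx4 were the most abundant, at 248 ± 15.7 and 247 ± 44.2 CPM per kb (SD, n = 3), and did not differ beyond their spread. Srxn1 (89.0 ± 22.04) and Nfe2l2 (86.9 ± 15.7) came next and could not be ordered, nor could Txnrd1 (41.6 ± 5.22), Gpx2 (40.7 ± 4.77) and Gclm (36.5 ± 4.88). Nqo1 followed at 22.1 ± 9.46 CPM per kb, its spread reaching Gclc at 14.6 ± 3.49, and Hmox1 was far under the rest at 0.347 ± 0.0906. In mutant mice Gpx1 (369 ± 39.2 CPM per kb) stood above Gpx4 (277 ± 28.1) by more than their SDs. Gpx2 had a mean level of 102 ± 56.9 CPM per kb there, with a spread that took in Srxn1 (69.2 ± 6.97) and Nfe2l2 (64.9 ± 6.87). Nqo1, at 5.75 ± 0.935 CPM per kb, was then under Gclc at 8.47 ± 0.650, and Hmox1 remained the lowest at 1.89 ± 0.387.

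The wider redox network was described with 12 gene lists of textbook roles that exclude the 10 genes. Of their 137 tested genes 27 rose, 41 fell and 69 passed in neither direction, with a median log2 fold change of -0.058. Against the background of 20.5% higher and 20.3% lower among all genes, the lists held more that fell than rose. With scaling by library totals 44 rose and 29 fell, but that scaling also moved all genes, to 4024 higher and 2301 lower. The background shares of the reported fit apply to the count of each list below. The lists differed in direction, as the plot of redox genes by role shows.

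**Figure D4:**
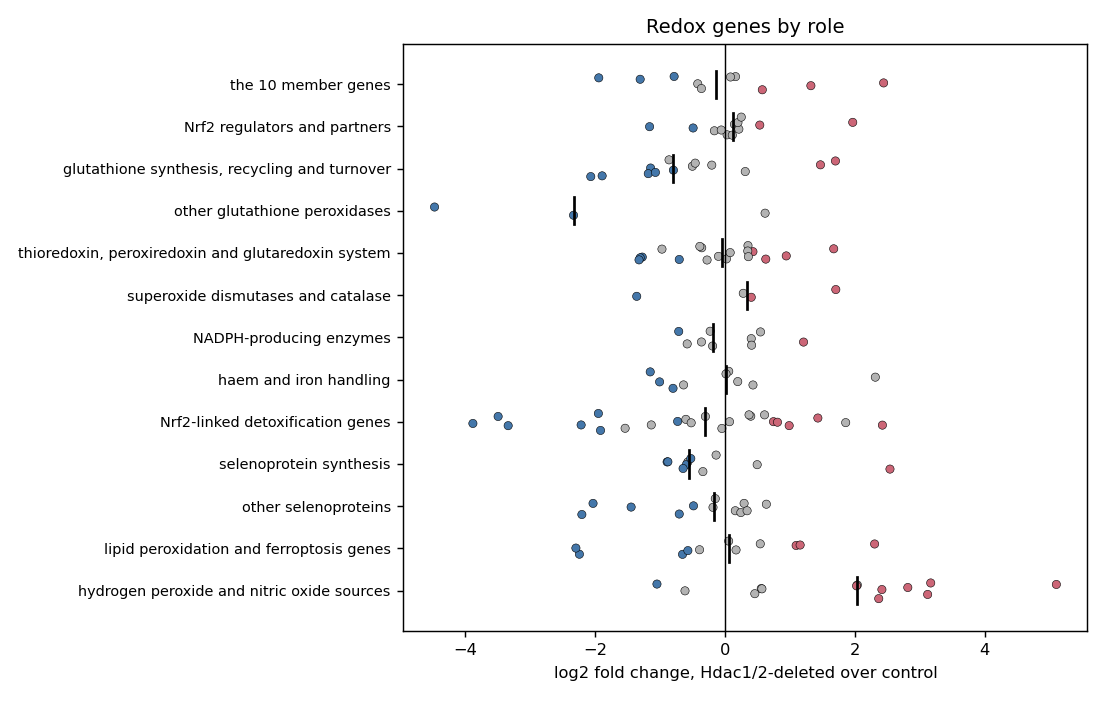
Log2 fold change, mutant over control, of each tested gene in the 10-gene set and in the 12 redox lists, 1 point per gene, with a black line at the median of the list. Red and blue points passed the test as higher or lower and grey points did not. The median is lowest for the other glutathione peroxidases (-2.33, 3 genes) and highest for the hydrogen peroxide and nitric oxide sources (2.04, 13 genes).

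Among 12 regulators and partners of Nrf2, 2 rose and 2 fell, beside 20.5% and 20.3% of all genes. Maff, a small Maf protein, rose from 10.6 ± 1.29 to 41.3 ± 5.81 CPM (SD, n = 3 each; log2 fold change 1.97, edgeR adjusted p = 5.3e-05). The small Maf genes Mafk (80.1 CPM in control, 76.9 CPM in mutant mice, edgeR adjusted p = 0.76) and Mafg (28.1 and 32.5 CPM, edgeR adjusted p = 0.38) did not pass. Bach2, a repressor at the same elements, fell by 1.16 on the log2 scale (edgeR adjusted p = 0.036), Cul3 fell by 0.49 (edgeR adjusted p = 0.020) and Btrc, an adaptor of another ubiquitin ligase that targets Nrf2, rose by 0.53 (edgeR adjusted p = 0.044). The last 3 calls were each lost in at least 4 of the 6 fits that left out 1 mouse. Keap1 had mean levels of 71.8 CPM in control and 73.4 CPM in mutant mice (log2 fold change 0.03, edgeR adjusted p = 0.89). Bach1, which competes for the same elements as Bach2, was at 70.2 and 77.5 CPM (log2 fold change 0.14, edgeR adjusted p = 0.69). Bach2 was less abundant, at 8.32 CPM in control and 3.72 CPM in mutant mice.

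Of 13 other genes of glutathione synthesis, recycling and turnover, 2 rose and 6 fell, with a median of -0.80. Glutathione reductase, Gsr, which regenerates glutathione with NADPH, rose from 75.2 ± 6.87 to 244 ± 28.1 CPM (log2 fold change 1.70, edgeR adjusted p = 5.7e-05), opposite to Gclc and Gclm. Oplah, which returns 5-oxoproline to glutamate, fell by 2.07 (edgeR adjusted p = 1.9e-04), Chac2, which breaks glutathione down, by 1.89 (edgeR adjusted p = 0.0073), and Ggt1, the brush border enzyme that cleaves it outside the cell, by 1.18 (edgeR adjusted p = 0.0032). Gss, the second enzyme of synthesis, was at 116 ± 20.8 and 144 ± 11.1 CPM (edgeR adjusted p = 0.15). The other glutathione peroxidases were scarce or uncalled: Gpx7 and Gpx8 passed as lower from under 1 CPM, and Gpx3 was at 14.7 ± 0.570 and 22.5 ± 7.38 CPM (edgeR adjusted p = 0.069).

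Of 18 genes of the thioredoxin, peroxiredoxin and glutaredoxin system, 4 rose and 4 fell, beside 20.5% and 20.3% of all genes. The relatives of Txnrd1 moved apart. The mitochondrial Txnrd2 fell from 25.4 ± 7.38 to 10.1 ± 1.17 CPM (log2 fold change -1.32, edgeR adjusted p = 0.0019) and Txnrd3 rose from 6.14 ± 0.857 to 19.6 ± 4.11 CPM (1.67, edgeR adjusted p = 4.2e-04). Prdx4, a peroxiredoxin of the endoplasmic reticulum, fell by 1.31 (edgeR adjusted p = 0.0012) and the glutaredoxin gene Glrx by 1.27 (edgeR adjusted p = 4.8e-04). Catalase, which like the glutathione peroxidases removes hydrogen peroxide, fell from 878 ± 123 to 342 ± 41.8 CPM (log2 fold change of Cat -1.36, edgeR adjusted p = 3.9e-04). It was 1 of 4 superoxide dismutase and catalase genes, of which Sod3 (1.71, edgeR adjusted p = 0.0072) and Sod2 (0.40, edgeR adjusted p = 0.049) rose, the latter call being lost in 5 of the 6 fits with 1 mouse left out.

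Of 9 NADPH-producing enzymes, mitochondrial Idh2 rose (log2 fold change 1.21, edgeR adjusted p = 4.1e-04) and G6pdx, the entry enzyme of the pentose phosphate pathway, fell (-0.71, edgeR adjusted p = 0.028), a call lost in 4 of the 6 fits. Of 9 genes of haem and iron handling none rose and 3 fell, though 2 passed as higher with library totals. Blvra, biliverdin reductase, which acts on the product of Hmox1, fell from 19.4 ± 1.14 to 9.67 ± 0.652 CPM (-1.01, edgeR adjusted p = 0.0011). Fech, which makes haem, fell by 0.80 (edgeR adjusted p = 0.0047) and the transporter Slc46a1 by 1.15 (edgeR adjusted p = 0.016, lost without H1 and without H5). Hmox2, the constitutive haem oxygenase, was at 55.1 ± 4.57 and 57.3 ± 4.34 CPM (edgeR adjusted p = 0.76).

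Of 23 detoxification genes linked to Nrf2, 5 rose and 7 fell, beside 20.5% and 20.3% of all genes. The number that fell was 4 without C3 or without C3-3 and 9 without C1. Glutathione transferases stood at both ends: Gstm2 fell from 44.6 ± 11.4 to 3.03 ± 0.687 CPM (log2 fold change -3.88, edgeR adjusted p = 1.8e-05) and Gsta4 rose from 75.5 ± 36.1 to 405 ± 50.1 CPM (2.42, edgeR adjusted p = 6.1e-04). Reads of such close paralogs may be split uncertainly. Ephx1, the microsomal epoxide hydrolase, fell by 3.49 (edgeR adjusted p = 5.0e-04), and Cbr3, a carbonyl reductase, passed as lower with overlapping groups (-3.34, edgeR adjusted p = 0.042) and lost the call in 5 of the 6 fits.

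Gpx1, Gpx2, Gpx4 and Txnrd1 need the machinery that inserts selenocysteine. Of 10 genes of selenoprotein synthesis 1 rose and 5 fell, with a median of -0.55. The number that fell was 3 without C3-3 and 3 with library totals, and 0 when a 2-fold change was also required. Sephs2 fell by 0.89 (edgeR adjusted p = 0.012), Sepsecs by 0.88 (edgeR adjusted p = 0.0043) and Sephs1 by 0.65 (edgeR adjusted p = 0.0055), while Lrp8, a receptor for selenoprotein P, rose from 0.688 to 4.01 CPM on average (2.54, edgeR adjusted p = 7.1e-04). In the list of 12 other selenoproteins none rose and 5 fell, and with library totals 2 rose and 3 fell. Of the selenoproteins placed in other lists, Txnrd3 rose (1.67), while Txnrd2 (-1.32) and Sephs2 (-0.89) fell. Sepp1, selenoprotein P, went from 8630 CPM in control to 1873 CPM in mutant mice on average (-2.20, edgeR adjusted p = 2.9e-04), Dio1, a thyroid hormone deiodinase, fell by 2.03 (edgeR adjusted p = 2.2e-05), Selm by 1.45 (edgeR adjusted p = 2.2e-04) and Selo by 0.70 (edgeR adjusted p = 0.0061).

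Of 11 genes of lipid peroxidation and ferroptosis, the process that Gpx4 holds back, 3 rose and 4 fell. The number that fell was 1 without C3-3 and 2 without C3, H1 or H5. Gch1, the entry enzyme of tetrahydrobiopterin synthesis, rose from 15.8 ± 2.36 to 78.0 ± 12.0 CPM (2.30, edgeR adjusted p = 2.9e-05) and Pebp1 rose by 1.16 (edgeR adjusted p = 3.3e-04). Acsl4, which feeds polyunsaturated fatty acids into membranes, fell by 2.24 (edgeR adjusted p = 0.0022) and the lipoxygenase gene Alox5 by 2.30 (edgeR adjusted p = 0.030, lost without C3, C3-3 or H1). Both were scarce, with means of 1.81 CPM in control and 0.374 CPM in mutant mice for Acsl4 and 2.73 and 0.542 CPM for Alox5.

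The genes that make hydrogen peroxide and nitric oxide were the list with most rises, 7 of 13 against 1 that fell, with a median of 2.04. Of all genes 20.5% rose and 20.3% fell. Among the rises Duox1 (0.0752 to 0.690 CPM on average) and Nox4 (0.114 to 0.601 CPM) stayed under 1 CPM. The gene that fell was Noxo1, from 33.4 ± 9.76 to 16.1 ± 0.916 CPM (-1.05, edgeR adjusted p = 0.0045). Cyba, a subunit of NADPH oxidases, rose from 46.8 ± 6.58 to 249 ± 36.9 CPM (2.41, edgeR adjusted p = 2.3e-05). The epithelial oxidase Duox2 was at 2.22, 3.84 and 5.12 CPM in C1, C3 and C3-3 and at 16.0, 72.8 and 11.5 CPM in H1, H5 and H9 (3.17, edgeR adjusted p = 0.029, lost without any 1 of the controls). Its maturation factor Duoxa2 was at 0.438, 0.360 and 0.772 CPM in the controls and at 12.0, 36.9 and 5.07 CPM in the mutant mice (5.10, edgeR adjusted p = 0.0036). H5 was highest for both, as it was for Gpx2. Nos2, inducible nitric oxide synthase, was at 2.96, 5.31 and 9.33 CPM in the controls and at 26.8, 65.5 and 31.3 CPM in H1, H5 and H9 (2.81, edgeR adjusted p = 0.0055), again highest in H5. Not every gene of the list that rose was highest in H5. Cyba was highest in H9 (273 CPM, against 268 CPM in H5). Noxa1 was highest in H1 (36.2 CPM), with H5 the lowest mutant mouse (28.1 CPM).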

How the data were processed

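RNA of EDTA-enriched jejunal IEC was sequenced as poly(A)-selected, directional paired-end libraries. The deposited table holds raw counts per gene, which were used, beside scaled counts (a score) and log2 fold changes with p-values from the authors' own comparison, which were not. The authors aligned the reads with STAR. The submitters' processing notes give STAR 2.4.0f1 and mm9, whereas the study's methods name GRCm38, and the table holds no coordinates. The counter, its annotation and its use of strand are not given in the sources used here. Every gene in the table had at least 10 counts in all. Positions and exon lengths were taken from GENCODE for GRCm38 by gene identifier.

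Groups followed the labels, which give 3 separate mice each and no batch. Counts were filtered with filterByExpr, scaled by TMM and fitted with edgeR 4.0.16 in R 4.3.3 (robust quasi-likelihood test, default prior count, Benjamini-Hochberg adjustment over all tested genes, limit 0.05). Standard errors were the log2 fold change over the root of the F statistic. Ratios of 2 genes were tested by exact permutation. The fit was run on simulated counts with the same dispersion for every gene and few changed genes. That setting is simpler than these data, so it checks the code and not the error rate here. Alternatives were DESeq2 1.42.0, limma 3.58.1 voom, other scalings and filters, and leaving out each mouse.

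The members and lists were chosen with earlier results of these data known. Up to 4 genes besides the members were named per redox list. They had an adjusted p of at most 0.05, a mean of at least 1 CPM and the largest changes. From the macrophage and crypt lists the first 3 were named, and from the B and plasma cell list Cd79a. For enterocyte, Paneth cell, goblet cell, T cell, stromal and red blood cell lists only counts and summed levels were given. Keap1, Bach1, Mafk, Mafg, Gss, Gpx3, Gpx7, Gpx8, Hmox2, Noxa1 and Cd163 fall outside these rules and were named after their values were seen. So were Noxo1, Duox1, Nox4, Slc40a1 and Blvrb. The same holds for Mrc1, C1qa, C1qb, Sdc1, Cd79b, Jchain, Smoc2, Mcm2, Mcm6, Pcna, Mki67, Top2a and Ccnb1.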

Additional observations from a re-analysis of the deposited data

How the results depend on the processing

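No member changed direction under any alternative run except Txnrd1, at -0.00039 without H1. Nqo1, Hmox1 and Gclm passed the limit in every fit. With a 2-fold change also required, Gclc (-0.78) and Gpx1 (0.57) were no longer counted, all genes gave 1944 higher and 1990 lower, and the redox lists 26 lower. Scaling by library totals moved the median of all genes from -0.0081 to 0.18, gave 4024 higher and 2301 lower genes (63.6% of calls higher, against 50.2%, or 3198 and 3168, in the reported fit), raised the higher genes of the redox lists to 44, and ended the call of Gclc (-0.61). DESeq2 called 3461 higher and 3348 lower genes and voom 3240 and 3198. Leaving out each mouse gave log2 fold changes of -0.56 to -0.33 for Nfe2l2, -0.53 to -0.17 for Srxn1, -0.91 to -0.57 for Gclc, 0.51 to 0.66 for Gpx1 and 0.77 to 1.58 for Gpx2, with 1 to 3 members higher and 3 to 5 lower. It left the Gpx2 to Gpx1 ratio difference at 0.22 to 0.97, the Gpx2 to Gpx4 one at 0.60 to 1.37 and the Gclm to Gclc one at -0.71 to -0.43. The cause of these shifts was not tested. No paired analysis was run because the labels give no pairing between mice of the 2 groups. Depth limits Hmox1 most, with 28 to 42 counts in the controls.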
